A study of Danio rerio with 12 samples.

Results

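Histone-modifying enzymes of the adult zebrafish brain are described here, read from the messages of 73 genes. The genes were chosen by symbol, with earlier results of these data known. They are deacetylases (hdac), sirtuins (sirt), acetyltransferases (kat), lysine demethylases (kdm and jmjd) and subunits of Polycomb repressive complex 2 (ezh and suz12). Methyltransferases (suv39h, suv420h, ehmt, setd, whsc1, prmt and smyd) were also taken. Such a symbol was carried by 79 of the 32674 genes of the deposited tables, and 73 of these passed a filter on low values that left 16364 genes. By family they were sorted into 39 writers, for adding a mark to a histone, and 34 erasers, for removing one. Some members act mainly on other proteins, and the scaffold subunit suz12a was counted as a writer.

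The study asks whether exposure of an ancestor to methylmercury (MeHg), an organic mercury compound that enters the brain, alters the brain messages of descendants that were not exposed. Zebrafish eggs of the EK strain were kept for 24 h in 0.03 µM MeHg in ethanol, which founded the MeHg lineage, or in ethanol vehicle with 0 µM MeHg, which founded the control lineage. Brains of adult fish of generation F3 were sequenced in both lineages, and neither lineage was exposed again. The labels list 12 samples, 6 for each lineage, and values of 6 MeHg libraries (replicates 1, 2, 4, 5, 7 and 8) and 5 control libraries (replicates 2, 4, 5, 6 and 8) were compared. Whether a sample held 1 brain or a pool is not stated in the labels, nor whether samples came from separate families, so p-values measure only the spread between these samples.

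Histone tails carry acetyl and methyl groups that change how tightly DNA is packed and which proteins bind to it. Acetylation by the kat enzymes generally accompanies active genes and is removed by zinc-dependent deacetylases and by the NAD-dependent sirtuins. Methylation has opposite readings depending on the residue: methyl groups on H3K4 and H3K36 mark active promoters and transcribed genes, whereas H3K9, H3K27 and H4K20 methylation marks silent chromatin. In the mammalian brain these enzymes are known for roles in neuron identity, memory and responses to activity. The roles given below come from mammalian enzymes unless stated otherwise, and several of the enzymes act mainly on proteins other than histones.

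Depth overlapped between the lineages. The libraries held an implied 3248620 to 7503910 fragments in the MeHg lineage and 2062480 to 6100930 in the control lineage (exact two-sided permutation p = 0.630). Markers of neurons, astroglia, oligodendrocytes and microglia were present in every library, with neuronal markers at 2247 to 3043 summed FPKM (fragments normalised for gene length and sequencing depth) in the MeHg lineage and 2114 to 2867 in the control lineage. Summed astroglial FPKM was 1171 to 1978 in the MeHg lineage and 902.9 to 3244 in the control lineage, highest in control replicate 5. Summed microglial FPKM was 282.5 to 694.6 in the MeHg lineage and 380.3 to 1970 in the control lineage, highest in control replicate 4. The astroglial sums rest on the 2 genes found of a list of 4, and the microglial sums on 3 of 5. Markers of epidermis, skeletal muscle and red blood cells varied more. Summed epidermal FPKM was 211.6 to 7733 in the MeHg lineage and 308.9 to 10899 in the control lineage, with MeHg replicates 4 and 5 and control replicate 4 at the top. Red blood cell FPKM, from the 1 gene found of a list of 5, reached 6936 in MeHg replicate 4 and 9384 in control replicate 5. The part of epidermis, muscle and blood in the results below was not tested. Without these 4 libraries none of the 73 genes passed the test. None passed with all libraries either, and a fit of fewer libraries detects less, so this cannot show the part of these tissues.

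Transcripts of the enzymes had levels close to those of all genes tested. The median gene of the group had 10.9 FPKM in the MeHg lineage and 11.0 FPKM in the control lineage, and the median of all genes tested was 9.06 FPKM in the MeHg lineage and 9.16 FPKM in the control lineage. Together the 73 genes took 0.391% to 0.458% of the scaled counts of a MeHg library and 0.318% to 0.478% of those of a control library. FPKM values are adjusted for gene length, so they allow levels of different genes to be compared. In bulk tissue, fewer cells of a type and less RNA per cell cannot be told apart.

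The most abundant writer was prmt1, the main arginine methyltransferase of cells, with 83.8 ± 10.4 FPKM in the MeHg lineage and 81.9 ± 17.2 FPKM in the control lineage (SD, n = 6 and 5, as throughout). It was followed by smyd2a, a lysine methyltransferase of the SMYD family, with 54.2 ± 6.46 FPKM in the MeHg lineage and 48.9 ± 11.1 FPKM in the control lineage. The third was ezh1, a catalytic subunit of Polycomb repressive complex 2, with 50.5 ± 9.03 FPKM in the MeHg lineage and 40.9 ± 7.82 FPKM in the control lineage. The acetyltransferase kat7a had 39.5 ± 4.65 FPKM in the MeHg lineage and 47.0 ± 7.89 FPKM in the control lineage, and setd7, a lysine methyltransferase with histone and other substrates, had 28.2 ± 3.65 FPKM in the MeHg lineage and 26.4 ± 2.25 FPKM in the control lineage. These lineage ranges overlapped for each of the 5 writers.

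Among erasers the class I deacetylase hdac1, the catalytic subunit of several corepressor complexes, came first with 79.5 ± 4.56 FPKM in the MeHg lineage and 76.5 ± 6.10 FPKM in the control lineage. The H3K4 demethylase kdm1a (LSD1), a partner of hdac1 in the CoREST complex, was second with 54.6 ± 5.37 FPKM in the MeHg lineage and 63.8 ± 14.3 FPKM in the control lineage. After these came hdac9b, a class IIa deacetylase controlled by signalling, and the demethylases kdm2ba (H3K36) and kdm5ba (H3K4). Over all 11 libraries they averaged 35.4, 27.8 and 27.6 FPKM. The enzymes with the highest levels thus included both writers and erasers of each of the main chemical marks, acetyl and methyl.

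At the low end, the group ended with prmt2 at 1.83 FPKM, suv39h1b at 1.92 FPKM and hdac10 at 2.63 FPKM over the 11 libraries. The 2 catalytic subunits of Polycomb repressive complex 2 were far apart in level. ezh2, which in mammals is most abundant in dividing cells, had 2.78 ± 0.32 FPKM in the MeHg lineage and 2.59 ± 0.49 FPKM in the control lineage, against the values of about 50.5 and 40.9 FPKM given for ezh1. suv39h1b, an H3K9 methyltransferase of constitutive heterochromatin, had a median of 1.97 FPKM in the MeHg lineage and 1.27 FPKM in the control lineage.

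**Figure D1:**
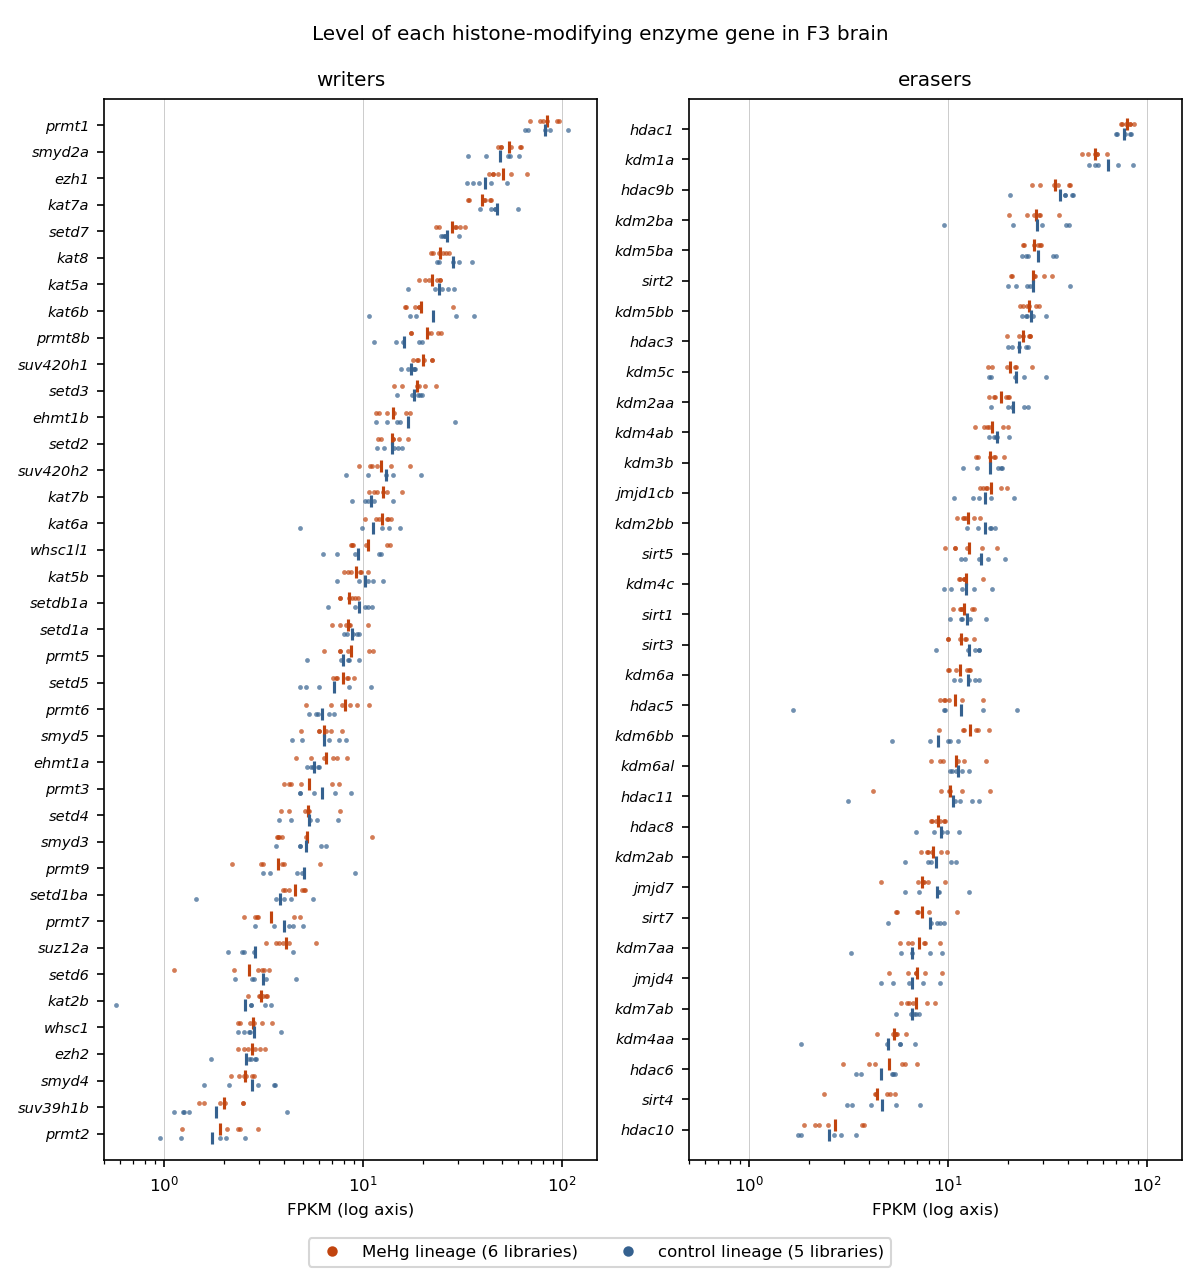
FPKM (log axis) of each of the 39 writers (left) and 34 erasers (right), in order of mean level. Each point is a library, each vertical bar the mean of a lineage, with MeHg libraries in the upper line of a gene and control libraries in the lower. Levels run from about 1.83 FPKM for prmt2 to 82.9 FPKM for prmt1, and the points of the lineages overlap for every gene.

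Below the filter fell 6 symbols of the same families, which asked for a scaled count (a fragment count divided by the authors' size factor of the library) of at least 10 in at least 6 libraries. They were smyd1a, smyd1b, smyd2b, setd1bb, hdac7b and suv39h1a, and suv39h1a was listed at 0 in all 11 libraries. Their scaled counts stayed at or under 24.9 in each library, except for smyd1a, whose product is a methyltransferase of striated muscle. smyd1a reached 169 in MeHg replicate 4 and 42.8 in MeHg replicate 5, and lay at 1.34 to 11.8 in the other MeHg libraries and at 0 to 27.2 in control libraries. MeHg replicate 4 also had the highest summed skeletal muscle markers, 3748 FPKM, against 13.2 to 707 FPKM in the other MeHg libraries and 25.2 to 434 FPKM in control libraries. The genes just inside the filter were hdac11, with 10 or more in 9 libraries, and prmt2, with 10 or more in 8.

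None of the 73 histone-modifying enzymes passed the test between lineages. The count was 0 of 73 in either direction with limma (log2 of the scaled count plus 1, Benjamini-Hochberg adjusted p under 0.05), beside 44 of all 16364 genes tested, or 0.269%. At that background share a count of 0 among 73 genes is not a result about the enzymes. At an unadjusted p under 0.05 the count was 5 of 73, beside 6.61% of all genes tested. All 5 were higher in the MeHg lineage, a direction that 3.31% of all genes took at that p. The 5 were the eraser kdm6bb and the writers suz12a, prmt8b, ezh1 and suv420h1. This count varied with the libraries used: it was 3 without MeHg replicate 1, 2 or 5 and 2 without MeHg replicate 7 or control replicate 2. A fit of fewer libraries also detects less, and array weights raised the count, as given below. Without control replicate 5 the log2 fold changes (± SE) were 0.22 ± 0.12 for ezh1 and 0.18 ± 0.11 for suv420h1. Those of kdm2bb and suv39h1b were then -0.35 ± 0.12 and 0.64 ± 0.22.

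The differences were small, and for most of the enzymes large ones lay outside the interval. Log2 fold changes of MeHg over control ran from -0.28 (kdm2bb) to 0.61 (kdm6bb). Their median was 0.02 over the 73 genes, 0.08 over writers and 0.02 over erasers, beside 0.03 over all genes tested. The fold change was above 1 for 44 of the 73 genes, 26 of 39 writers and 18 of 34 erasers, beside 54.3% of all genes. The 95% interval of the fold change lay within 2-fold in both directions for 70 of the 73 genes, beside 70.1% of all genes, and within 1.5-fold for 48. The exceptions at 2-fold were kat2b, suv39h1b and hdac5, each with control replicate 5 far from the other control libraries. The median standard error was 0.16 for the enzymes and 0.24 for all genes. The enzymes also had higher scaled counts, with a median of 179 beside 98.1 over all genes tested. The part of these counts in the narrower intervals was not tested. In none of the 73 enzymes did the 6 MeHg libraries lie wholly above or below the 5 control libraries. This separation was seen in 1.37% of all genes, and in dot1l, a writer outside the 73 described below.

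**Figure D2:**
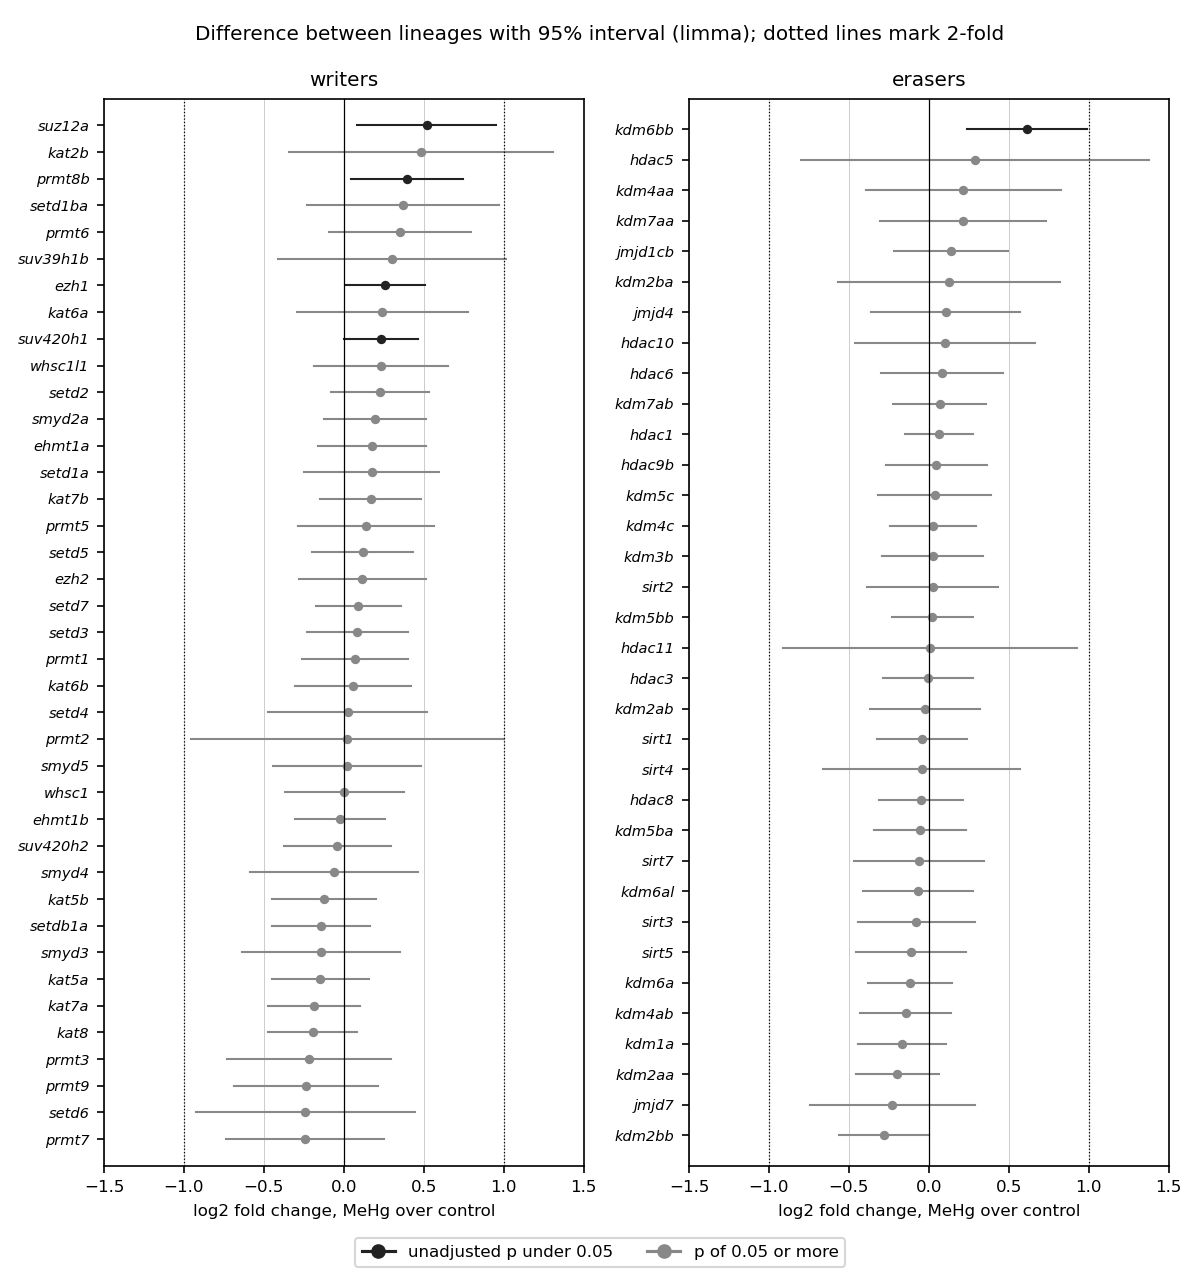
Log2 fold change of MeHg over control with its 95% limma interval for each writer (left) and eraser (right). The 5 genes with an unadjusted p under 0.05 are drawn in black, and dotted lines mark 2-fold in both directions, which 70 of 73 intervals do not cross.

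Polycomb repressive complex 2, the writer of H3K27 methylation, was represented by suz12a, ezh1 and ezh2, which had positive differences of 0.52, 0.26 and 0.12 on the log2 scale. None passed the test. Further core and accessory subunits were on the list of other chromatin genes and did not pass either. Their log2 fold changes were 0.21 for rbbp4, 0.17 for rbb4l, -0.12 for aebp2, 0.64 for jarid2a, 0.23 for jarid2b, 0.42 for mtf2, 0.44 for phf1 and 0.23 for phf19. Control replicate 5 was the lowest library for jarid2a (33.4 scaled counts against 123 to 204 in the other control libraries), mtf2 and phf1. It was the highest control library for rbb4l, aebp2, jarid2b and phf19. suz12a, the scaffold subunit, had scaled counts of 76.3 to 109 in MeHg libraries with a median of 90.7, and 52.6, 57.5, 105, 49.1 and 66.5 in control libraries 2, 4, 5, 6 and 8. Control replicate 5 lay among the MeHg values, whereas the other 4 control libraries lay below all 6 MeHg libraries. The log2 fold change was 0.52 ± 0.20 (SE) at a limma adjusted p of 0.647, a fold of 1.43 with a 95% interval of 1.06 to 1.94. Without control replicate 5 it was 0.69 ± 0.15 with a limma adjusted p of 0.0875, and over the alternatives its adjusted p ran from 0.0679 to 0.951.

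ezh1 had scaled counts of 581 to 807 in MeHg libraries with a median of 709, and 629, 583, 527, 546 and 646 in control libraries 2, 4, 5, 6 and 8. Of the 6 MeHg libraries 4 exceeded every control library in scaled counts. The log2 fold change was 0.26 ± 0.11 (SE) at a limma adjusted p of 0.743. In FPKM values control replicate 8 was at 53.0, and only MeHg replicates 2 and 7 lay above it, at 55.5 and 66.6. For ezh2, MeHg libraries held scaled counts of 48.5 to 65.7 with a median of 56.8, and control libraries held 59.4, 55.9, 35.5, 55.3 and 59.1. The groups overlapped and only control replicate 5 was clearly low, and the log2 fold change was 0.12 ± 0.18 (SE) at a limma adjusted p of 0.934, or -0.02 without control replicate 5.

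Writers of the other silencing marks, H3K9 and H4K20 methylation, showed 1 gene with an unadjusted p under 0.05 among 6. This was suv420h1, an H4K20 methyltransferase, with scaled counts of 392 to 473 in MeHg libraries (median 428) and 386, 350, 314, 398 and 386 in control libraries 2, 4, 5, 6 and 8. The lowest MeHg values overlapped the highest control values, and the log2 fold change was 0.23 ± 0.11 (SE) at a limma adjusted p of 0.754. Its relative suv420h2 had a log2 fold change of -0.04. The H3K9 methyltransferases ehmt1a, ehmt1b and setdb1a had log2 fold changes of 0.18, -0.02 and -0.14. suv39h1b stood at 25.8 to 43.1 scaled counts in MeHg libraries and at 71.1 in control replicate 5, while the other control libraries lay at 19.4 to 22.9.

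Enzymes that write marks of active genes by methylation gave no call. The H3K36 methyltransferase setd2, which acts during transcription elongation, had 455 to 555 scaled counts in MeHg libraries with a median of 490, and 446, 398, 318, 574 and 439 in control libraries 2, 4, 5, 6 and 8. Each of the 6 MeHg libraries lay above the control median but below the highest control library, with a log2 fold change of 0.23 ± 0.14 (SE) at a limma adjusted p of 0.840. In FPKM values the median of setd2 was 14.1 in the MeHg lineage and 14.4 in the control lineage, with means of 14.1 and 13.9. Over the alternatives its log2 fold change ran from 0.0094 to 0.3318. The related whsc1l1 (NSD3) and whsc1 (NSD2) had log2 fold changes of 0.23 and 0.00. setd1ba and setd1a, which carry H3K4 methyltransferase activity in COMPASS complexes, had log2 fold changes of 0.37 ± 0.28 and 0.17 ± 0.19 (SE). setd1ba was at 48.1 in control replicate 5 and at 121 to 187 in the other control libraries, against 131 to 170 in MeHg libraries. In the SETD family as a whole 7 of 8 log2 fold changes were positive, beside 54.3% of all genes, with a median of 0.10 and none past the test. Without control replicate 5 the count was 6 of 8, beside 7899 of all 16364 genes, and setd1a had -0.03 and setd1ba 0.06. setd1a was at 190 scaled counts in that library, against 341 to 453 in the other control libraries. The FPKM values of setd1a differed from this. Control replicate 5 was there the highest control library, at 9.53 against 8.04 to 9.30. The FPKM means were 8.45 in the MeHg lineage and 8.81 in the control lineage. With all libraries the exception was setd6 at -0.24, a protein known mainly for non-histone substrates.

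Of 8 acetyltransferases, 4 had positive and 4 had negative log2 fold changes, with a median of -0.03. Without control replicate 5, 2 were positive, beside 7899 of all 16364 genes. kat8, which acetylates H4K16, held 195 to 237 scaled counts in MeHg libraries (median 217) and 247, 211, 309, 270 and 209 in control libraries 2, 4, 5, 6 and 8. All 6 MeHg libraries were below the control median, yet 4 lay within the control range, and the log2 fold change was -0.20 ± 0.13 (SE) at a limma adjusted p of 0.841. kat7a (HBO1) was similar, with a log2 fold change of -0.19 ± 0.13 (SE) at a limma adjusted p of 0.861. kat2b (PCAF), a coactivator of transcription, had the largest difference of the family at 0.48 ± 0.38 (SE) at a limma adjusted p of 0.883. It was at 77.4 to 96.3 scaled counts in MeHg libraries and 79.9 to 101 in 4 control libraries, with control replicate 5 at 16.7. Without that library the log2 fold change was 0.01. Leaving out it and the other 3 with high epidermal, muscle or blood markers gave a log2 fold change of -0.01 for kat2b.

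Arginine methyltransferases held the writer with the second smallest p, prmt8b. In mammals PRMT8 is known for its restriction to the brain and its attachment to the cell membrane. prmt8b had scaled counts of 358 to 511 in MeHg libraries with a median of 443, and 302, 233, 408, 327 and 395 in control libraries 2, 4, 5, 6 and 8. Of the MeHg libraries 4 exceeded every control library, and MeHg replicates 1 and 4 lay within the control range. The log2 fold change was 0.40 ± 0.16 (SE) at a limma adjusted p of 0.683, a fold of 1.32 with a 95% interval of 1.03 to 1.68. prmt6, which methylates H3 arginine near the H3K4 site, had 56.8 ± 13.5 scaled counts in the MeHg lineage and 43.4 ± 5.19 in the control lineage, a log2 fold change of 0.35 ± 0.20 (SE) at a limma adjusted p of 0.834. The abundant prmt1 had a log2 fold change of 0.07 ± 0.15 (SE) at a limma adjusted p of 0.948 and a 95% interval of the fold from 0.83 to 1.32. Among the 8 members, 5 log2 fold changes were positive and prmt7 was the lowest at -0.24.

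SMYD methyltransferases, 4 in number, had 2 positive and 2 negative log2 fold changes. Their most abundant gene smyd2a had 511 to 713 scaled counts in MeHg libraries (median 589) and 613, 385, 621, 528 and 482 in control libraries 2, 4, 5, 6 and 8. The groups overlapped, with a log2 fold change of 0.19 ± 0.15 (SE) at a limma adjusted p of 0.879.

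Among erasers the smallest p belonged to kdm6bb. Its mammalian counterpart KDM6B (JMJD3) removes methyl groups from H3K27, the mark that Polycomb repressive complex 2 writes. Scaled counts of kdm6bb were 562, 654, 567, 415, 564 and 748 in MeHg libraries 1, 2, 4, 5, 7 and 8, and 386, 388, 257, 431 and 450.0 in control libraries 2, 4, 5, 6 and 8. Above all control libraries lay 5 of the 6 MeHg libraries, and MeHg replicate 5 lay among them. The means were 585 ± 111 in the MeHg lineage and 383 ± 75.3 in the control lineage, a log2 fold change of 0.61 ± 0.17 (SE) at a limma adjusted p of 0.343, a fold of 1.53 with a 95% interval of 1.18 to 1.99. The lowest control value was again that of replicate 5, without which the log2 fold change was 0.48 ± 0.15 (SE) at a limma adjusted p of 0.293. Over the alternatives the log2 fold change stayed between 0.45 and 0.71 and its adjusted p between 0.169 and 0.931.

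The other kdm6 genes that carry a deposited symbol, kdm6a and kdm6al, had negative differences that did not pass the test. kdm6a (UTX) had 331 ± 38.4 scaled counts in the MeHg lineage and 359 ± 42.1 in the control lineage, with a log2 fold change of -0.12 ± 0.12 (SE) at a limma adjusted p of 0.908. kdm6al, a further zebrafish relative of kdm6a, had a log2 fold change of -0.07 ± 0.16 (SE) at a limma adjusted p of 0.949. The difference between kdm6bb and kdm6a or kdm6al was not tested. A gene without a deposited symbol, named KDM6B in the reference names, had a positive difference, like kdm6bb. Its log2 fold change was 0.59 ± 0.19 (SE) at a limma adjusted p of 0.453, as given under the other observations.

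**Figure D3:**
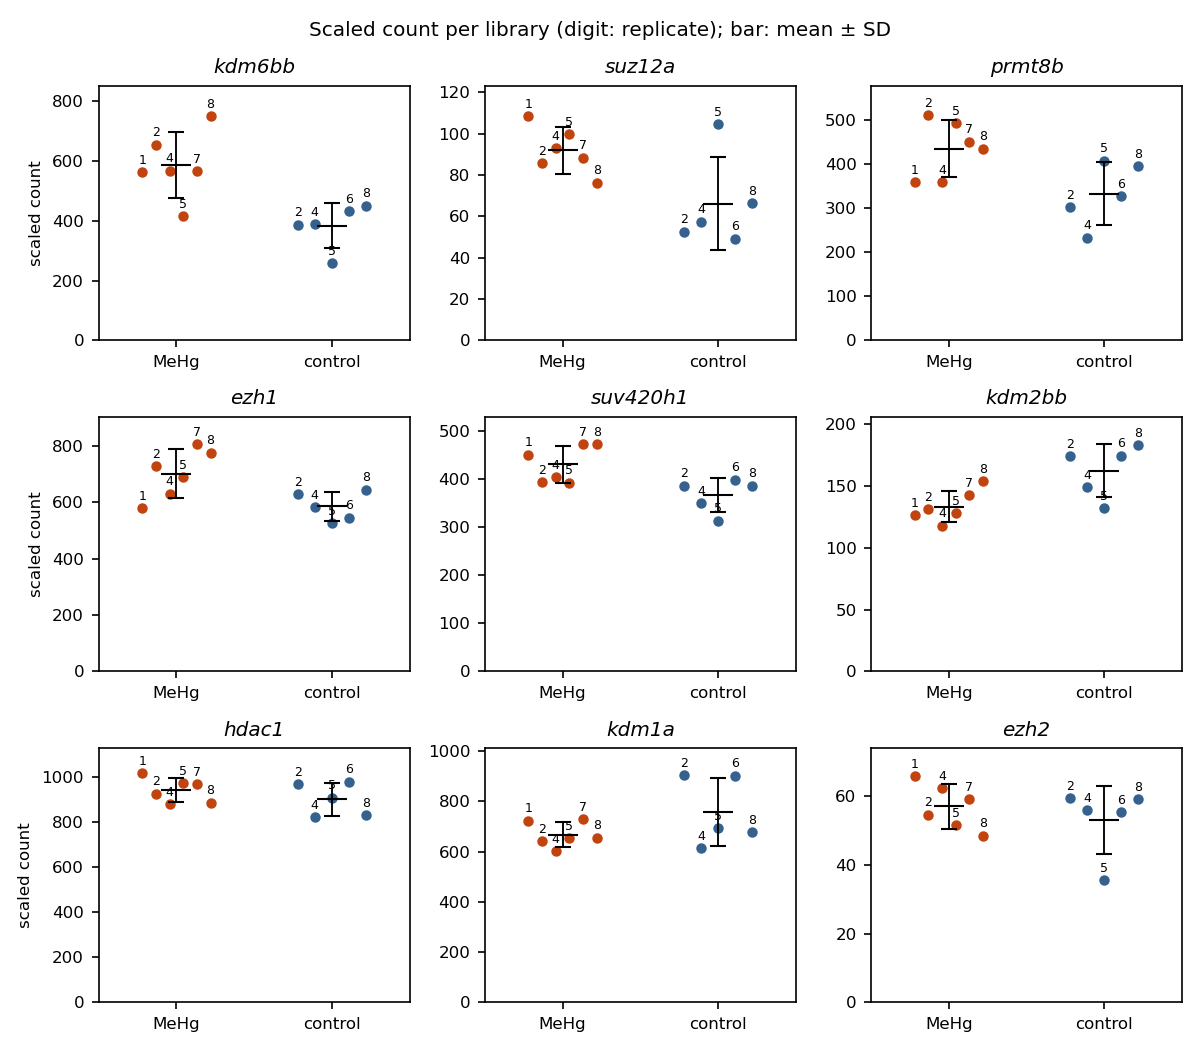
Scaled counts of 9 genes in each library, MeHg on the left and control on the right of each panel, with the replicate number beside each point and the mean ± SD as a bar. The first 6 panels hold the genes with the smallest p, and the last row the deacetylase hdac1, the demethylase kdm1a and the methyltransferase ezh2. The lineages overlap in every panel, and control replicate 5 is the lowest point among control libraries for kdm6bb, ezh1, suv420h1, kdm2bb and ezh2 and the highest for suz12a and prmt8b.

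Of the 4 H3K36 demethylases of the kdm2 family, 3 had negative log2 fold changes and none passed the test. kdm2bb, a gene whose mammalian counterpart brings a Polycomb complex to unmethylated CpG islands, had 118 to 154 scaled counts in MeHg libraries (median 129.6) and 174, 149, 132, 174 and 183 in control libraries 2, 4, 5, 6 and 8. All 6 MeHg libraries were below the control median, but control replicate 5 lay in the middle of the MeHg values. The log2 fold change was -0.28 ± 0.13 (SE) at a limma adjusted p of 0.770. kdm2aa gave -0.20 ± 0.12 (SE) at a limma adjusted p of 0.840 and was also below the control median in all 6 MeHg libraries, with 396 to 488 scaled counts in MeHg libraries and 412 to 620 in control libraries.

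kdm1a (LSD1) had 601 to 730 scaled counts in MeHg libraries with a median of 655, and 905, 614, 694, 902 and 676 in control libraries 2, 4, 5, 6 and 8. Control replicates 2 and 6 were high and the other 3 lay within the MeHg range. The log2 fold change was -0.17 ± 0.13 (SE) at a limma adjusted p of 0.875, with a 95% interval of the fold from 0.74 to 1.08. The kdm5 demethylases of H3K4, kdm5ba, kdm5bb and kdm5c, had log2 fold changes of -0.06, 0.02 and 0.04. Those of the H3K9 and H3K36 demethylases kdm4aa, kdm4ab and kdm4c were 0.22, -0.14 and 0.03. Over the 16 JmjC demethylases 9 log2 fold changes were positive, with a median of 0.02. Without control replicate 5 there were 2 positive ones, kdm6bb and kdm7ab at 0.0018, beside 7899 of all 16364 genes. The median was then -0.08, beside -0.01 over all genes tested.

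The class I deacetylases had differences near 0, with narrow intervals. hdac1 had 877 to 1015 scaled counts in MeHg libraries with a median of 946, and 967, 822, 907, 977 and 830 in control libraries 2, 4, 5, 6 and 8. With a log2 fold change of 0.06 ± 0.10 (SE) at a limma adjusted p of 0.931 its fold was 1.05, with a 95% interval of 0.90 to 1.21. The other class I enzymes hdac3, the partner of nuclear receptor corepressors, and hdac8 had log2 fold changes of -0.01 and -0.05. hdac9b, of class IIa, had a log2 fold change of 0.05 ± 0.15 (SE) at a limma adjusted p of 0.959, which became -0.05 in the FPKM values and -0.06 without control replicate 5. hdac5, also of class IIa, had 161 to 265 scaled counts in MeHg libraries and 263, 168, 29.3, 394 and 170.0 in control libraries 2, 4, 5, 6 and 8. Its log2 fold change was 0.29 ± 0.50 (SE) and -0.30 without control replicate 5, and its interval was the widest of the erasers.

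The 2 class IIb enzymes hdac6, a tubulin deacetylase, and hdac10 had log2 fold changes of 0.08 and 0.10. hdac11 was near the detection limit, with 5.67 to 22.1 scaled counts in MeHg libraries and 4.18 to 18.6 in control libraries. The lowest of these, in control replicate 5, was under the scaled count of 6.27 that 3 fragments give there. Such floors cover counting error only.

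Sirtuins include nuclear, cytosolic and mitochondrial enzymes, so not all act on histones. Of the 6, 5 had negative log2 fold changes, beside 7483 of all 16364 genes. The 6 values ran from -0.11 for the mitochondrial sirt5 to 0.02 for the mainly cytosolic sirt2, with a median SE of 0.18. Without control replicate 5, 3 were negative, beside 8465 of all 16364 genes. sirt1, the best known nuclear member, had a log2 fold change of -0.04 ± 0.13 (SE) at a limma adjusted p of 0.958. sirt2 ranged from 287 to 461 scaled counts in MeHg libraries and stood at 564 in control replicate 5, against 279 to 354 in the other control libraries.

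Of the 3 JmjC proteins named jmjd, jmjd1cb, related to the H3K9 demethylase family, had 709 to 947 scaled counts in MeHg libraries and 525 to 1033 in control libraries, a log2 fold change of 0.14 ± 0.16 (SE) at a limma adjusted p of 0.918. jmjd7 and jmjd4, known as enzymes for non-histone substrates, had log2 fold changes of -0.23 and 0.11. None of the 3 was separated between lineages.

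Control replicate 5 stood apart from the other libraries in its mean over all genes. Its mean log2 deviation from the gene mean was -0.22 over all genes tested, against -0.01 to 0.04 in the other libraries. Over the 73 enzymes it was -0.14, beside -0.17 in control replicate 4 and -0.13 in MeHg replicate 4. In the mean of the enzymes control replicate 5 thus did not stand apart. Control replicate 5 was the lowest of the 11 libraries for 25 of the 73 genes and the highest for 15, so that 40 genes had an extreme value there. Control replicate 4 was the lowest for 15, MeHg replicate 4 the lowest for 12 and control replicate 6 the highest for 15. These counts were not made over all genes. The low genes included hdac5, kat2b, kdm2ba and kdm4aa, and the high ones suv39h1b and sirt2. kdm4aa had 66.9 scaled counts in control replicate 5 against 181 to 252 in the other control libraries. kdm2ba had 125 in control replicate 5 and 277 to 535 in the other control libraries. Of the 16 JmjC demethylases, 9 were lowest in this library and none was highest.

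The genes that were low in control replicate 5 were mostly long ones. Taking length from the ratio of scaled count to FPKM and relative to the median enzyme gene, the genes lowest in this library had a median relative length of 1.87, and those highest in it 0.70. Across the 73 genes, relative length and the deviation of control replicate 5 from the gene mean had a Spearman correlation of -0.56, while the same correlation was -0.15 to 0.33 in the other 10 libraries. Across all 16364 genes tested the value for control replicate 5 was -0.24. Genes are not independent replicates, and the values of a library share its RNA and depth. The part of RNA quality in these values was not tested.

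Leaving out this library lowered the number of positive fold changes among the enzymes and among all genes. Over all 16364 genes tested it was 7899 without control replicate 5, in place of 8881. Without control replicate 5 the erasers with a fold change above 1 numbered 11 of 34 in place of 18, with a median log2 fold change of -0.05, and the writers 22 of 39 in place of 26, with a median of 0.07. None of the 73 enzymes passed the test without it either, and 72 of all genes did. The mean of the log2 values varied by an SD of 0.11 between libraries of a lineage for writers and by 0.14 for erasers, and these medians were smaller. The SDs describe single libraries and include control replicate 5. They are not the error of a difference between lineages.

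**Figure D4:**
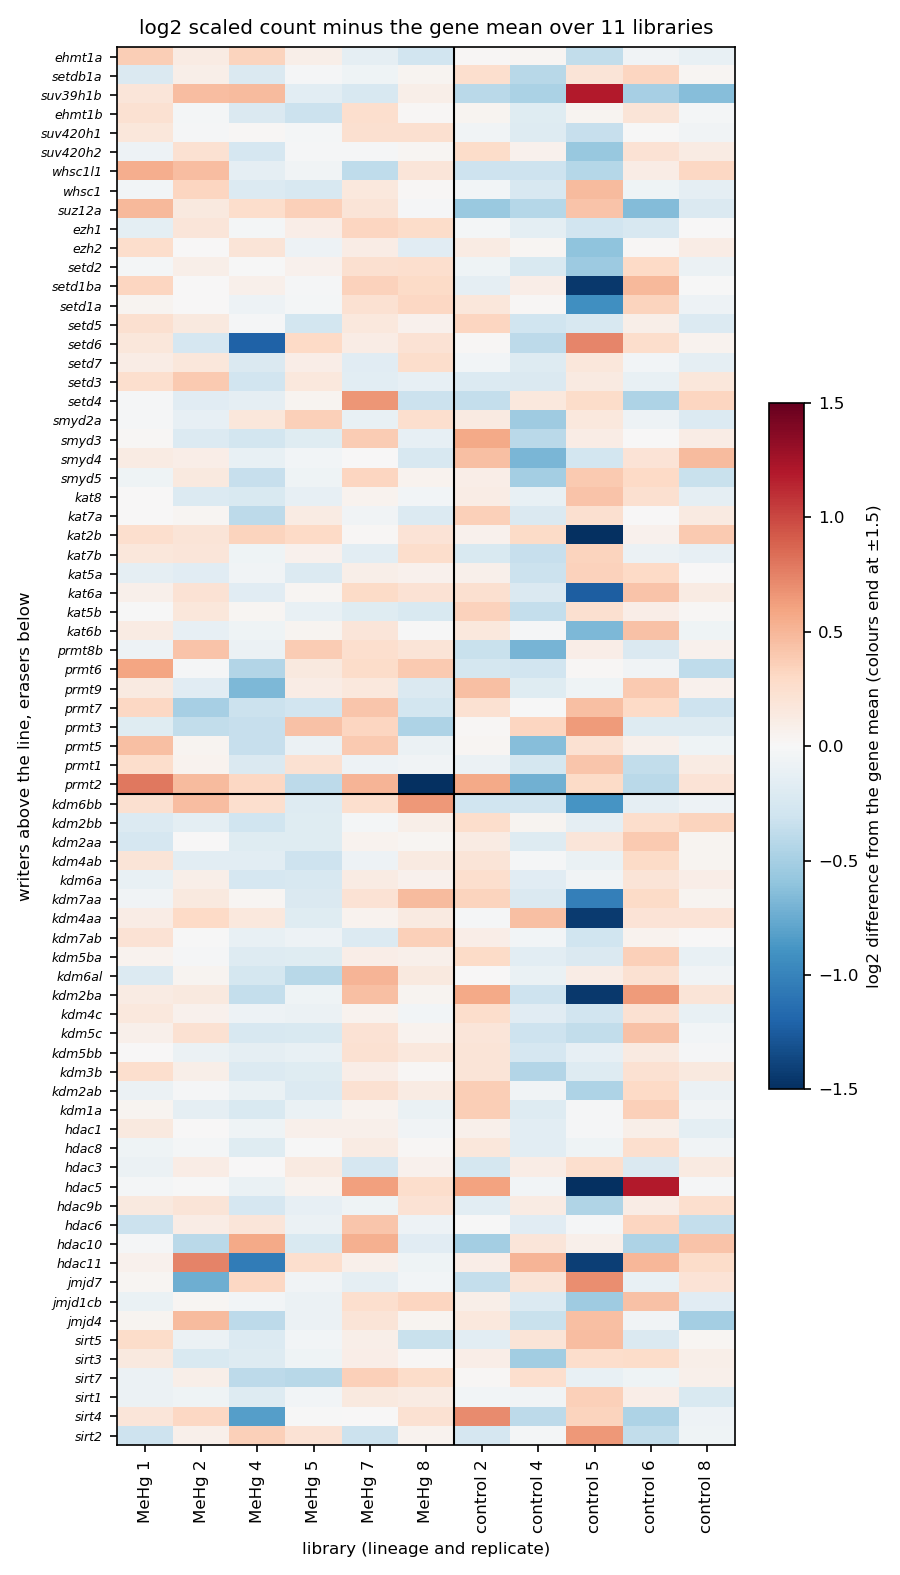
Deviation of each gene from its mean over 11 libraries (log2 scaled count, colours end at ±1.5), with MeHg libraries left of the vertical line, control libraries right of it, writers above the horizontal line and erasers below. Most of the darkest cells are in control replicate 5, with hdac5, kat2b, kdm2ba and kdm4aa low and suv39h1b high.

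A total of 9 pairs of genes with symbols that differ only in a final a or b could be compared by FPKM. Such symbols often mark copies left by the genome duplication of bony fishes. The pairs were formed by symbol alone, so a pair such as kat6a and kat6b need not be copies of one gene. One gene of the pair was the more abundant in each of the 11 libraries in 6 pairs. These were ehmt1b, kat6b and kdm4ab over their a partners and kat5a, kat7a and kdm2aa over their b partners. kat7a averaged 39.5 FPKM in the MeHg lineage and 47.0 FPKM in the control lineage, while kat7b averaged 12.6 FPKM in the MeHg lineage and 11.0 FPKM in the control lineage. kdm4aa averaged 5.38 FPKM in the MeHg lineage and 5.02 FPKM in the control lineage, and kdm4ab 16.6 FPKM in the MeHg lineage and 17.7 FPKM in the control lineage. kdm5ba and kdm5bb were nearly equal, at 27.6 and 25.9 FPKM over all libraries. How reads shared between copies were counted is not given in the sources used here. These ratios carry that uncertainty.

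The 3 pairs whose log2 fold changes lay farthest apart were kdm2ba and kdm2bb (0.13 and -0.28), kdm4aa and kdm4ab (0.22 and -0.14) and kat7a and kat7b (-0.19 and 0.17). In the first 2 pairs the opposite signs were lost without control replicate 5, where kdm2ba had -0.22 and kdm4aa -0.11. The kat7 copies kept opposite signs under each alternative tried, between -0.27 and -0.12 for kat7a and between 0.10 and 0.28 for kat7b. None of the 6 genes passed the test, and the difference between copies was not tested.

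**Figure D5:**
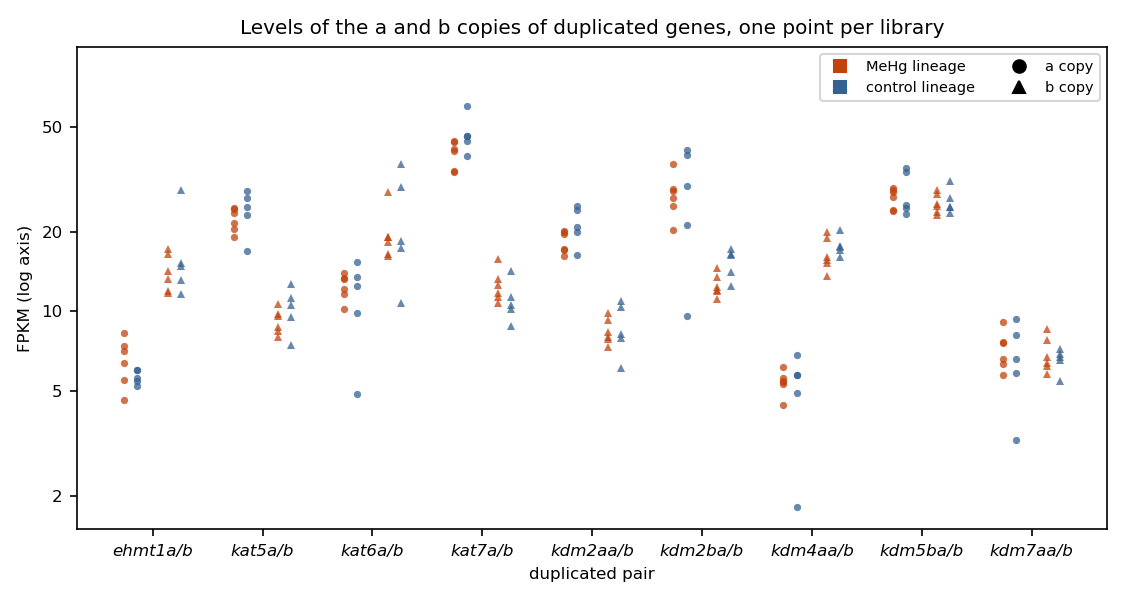
FPKM (log axis) of the a gene (circles) and b gene (triangles) of 9 pairs matched by symbol. There is 1 point per library, with MeHg libraries left of control libraries. Copies of kat7, kdm4a, ehmt1, kat5 and kdm2a lie in separate ranges, while those of kdm5b and kdm7a overlap. The single low circles of kdm2ba, kdm4aa, kat6a and kdm7aa are control replicate 5.

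Other chromatin genes were taken from a list of further methyltransferases, acetyltransferases, subunits of their complexes and readers of histone marks. There were 100 in the tables, of which 98 were tested and 1 passed, clocka, which was higher, beside 0.269% of all genes. The list was chosen with earlier results of these data known, so this count is not a result about chromatin genes. At an unadjusted limma p under 0.05 there were 8, 5 higher and 3 lower, beside 6.61% of all genes. Of the 98 log2 fold changes 64 were positive, beside 54.3% of all genes, with a median of 0.10. The lineages did not overlap in 3 of the 98 genes, beside 1.37% of all genes. clocka encodes a circadian clock activator whose mammalian counterpart has been reported to have acetyltransferase activity. Its scaled counts were 238 to 467 in MeHg libraries and 59.3 to 123 in control libraries, a log2 fold change of 1.66 ± 0.21 (SE) at a limma adjusted p of 0.0025.

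The next gene of that list, dot1l, encodes the H3K79 methyltransferase, a writer whose symbol is outside the families counted above. It had 225, 196, 248, 195, 276 and 304 scaled counts in MeHg libraries 1, 2, 4, 5, 7 and 8, and 103, 140, 43.9, 131 and 137 in control libraries 2, 4, 5, 6 and 8. The lineages did not overlap, the log2 fold change was 1.20 ± 0.27, and the limma adjusted p was 0.140. ing3, a subunit of an H4 acetyltransferase complex, was also separated, with 188 to 232 scaled counts in MeHg libraries and 239 to 334 in control libraries (log2 fold change -0.38 ± 0.12, limma adjusted p = 0.439). cbx7a, a reader of H3K27 methylation, had 843 ± 144 scaled counts in the MeHg lineage and 1205 ± 264 in the control lineage (limma adjusted p = 0.498), with overlap between the lineages. Control replicate 5 was the lowest library for clocka and dot1l and the highest control library for ing3 and cbx7a.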

How the data were processed

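Per the labels' protocols, total RNA of adult zebrafish brain was read as paired ends of 100 bp. Tools in the submitters' processing notes are TopHat, Cuffnorm, cutadapt, FastQC and CASAVA 1.8.2, with Zv9 as the build. Settings, annotation version, strand and the treatment of shared reads were not given in the sources used here. The authors deposited 2 tables of 32674 genes. The first holds signal values, which are fragment counts that the authors divided by 1 factor for each library (scaled counts). This was read from the values, of which 98.2% to 98.9% among low values were whole multiples (within 0.01) of a step per library. The step gives the implied depth, and 3 fragments correspond to 2.01 (MeHg replicate 5) to 6.86 (control replicate 2) scaled counts. The second table holds FPKM values deposited by the authors. Each table has 1 column without a name, which was not used.

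Members were found by symbol in the tables, with a scaled count of at least 10 in at least 6 libraries. The members and gene lists were chosen with earlier results of these data known. log2(scaled count + 1) was fitted with limma 3.58.1 (robust eBayes with a trend, statmod 1.5.0, R 4.3.3) over all 16364 genes passing the filter, with lineage as the factor and Benjamini-Hochberg adjustment at 0.05. The fit was tested on simulated data. Library measures were compared with an exact two-sided permutation test over 462 arrangements. Named genes are the 12 writers and 12 erasers with the smallest p, hdac1, kdm1a and ezh2. Also named are the 5 writers and 5 erasers of highest FPKM, the 3 a and b pairs farthest apart and 4 other chromatin genes. The other values in the text were picked after they were seen, to describe families and control replicate 5. Alternatives covered scaling, filter, pseudocount, the FPKM table, array weights, a replicate block, each library left out and 4 libraries left out, the last chosen after seeing the data. Tables and plots were made with Python 3.11.15, pandas 2.3.3, numpy 2.4.6 and matplotlib 3.10.9.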

Additional observations from a re-analysis of the deposited data

Results flagged for a closer look

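Among 62 sets of values (31 named genes in each of the 2 lineages), 2 held a library far from the rest of its lineage by Dixon's test, and both were control replicate 5. kat2b had a scaled count of 16.7 there, against 79.9 to 101 in the other 4 control libraries. ezh2 had 35.5 there, against 55.3 to 59.4. Chance gives about 1 such case in 20 independent sets, but these sets share the same libraries and are not independent. The number was therefore not judged against chance. hdac5 and suv39h1b, also far off in control replicate 5, were not among the 31 genes. In the 6 MeHg libraries the values were 77.4 to 96.3 for kat2b and 48.5 to 65.7 for ezh2. The part of RNA quality, blood or depth in these values was not tested.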

How the results depend on the processing

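None of the 73 enzymes passed the test under any of the 23 other settings of the fit. At an adjusted p threshold of 0.1 none passed in the unweighted fit of all libraries, and suz12a did with array weights (0.0679) and without control replicate 5 (0.0875). The median log2 fold changes of writers and erasers moved by less than 1 SD between libraries, which is not the error of a difference between lineages. For 21 of 31 named genes the sign was kept under each setting. Reversed values were, with array weights, kdm7aa -0.0712, jmjd1cb -0.014, kdm4aa -0.037, sirt5 0.045, hdac9b -0.0269, kdm2ba -0.2461 and ezh2 -0.0044. In FPKM values hdac9b was -0.0539 with a pseudocount of 0.1 and -0.0535 with 1. Without control replicates 4 and 5 and MeHg replicates 4 and 5, values reversed to kat2b -0.0078, kdm7aa -0.0274, sirt5 0.1013, kdm2ba -0.2748 and ezh2 -0.0328. With each library left out in turn, 7 genes changed sign, with the ranges kdm5ba -0.1214 to 0.0229, kdm7aa -0.0125 to 0.3277, kdm4aa -0.1144 to 0.3597, hdac9b -0.0608 to 0.116, kdm2ba -0.2165 to 0.3047, ezh2 -0.0196 to 0.1619 and prmt1 -0.0137 to 0.1819. The causes were not tested.

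Whether replicate numbers pair the samples was not settled, since correlations over 4 pairs cannot decide it. Correlations of same-numbered libraries ran from 0.06 to 0.46, all positive but not all above 0.1. Those of differently numbered libraries ran from -0.36 to 0.42. Only 1 MeHg and 1 control library correlated best with their own number. With the replicate block 0 enzymes passed, 3 had an unadjusted p under 0.05, prmt1 was -0.0445, and 20 of all genes passed, against 23 in the same libraries with no block (prmt1 -0.0445, 1 enzyme with an unadjusted p under 0.05).

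The 44 calls over all genes became 72 without control replicate 5 and 105 with array weights, which gave that library a weight of 0.13. The number of enzymes with an unadjusted p under 0.05 was 8 with array weights and 3 with no filter or in FPKM values. Count tests on whole reads were planned and not run, because a small share of the low values are not whole multiples of a step. With 5 and 6 libraries and a median SE of 0.16 on the log2 scale, small differences were not detectable, and prmt2 and hdac11 had libraries at or below the value of 3 fragments.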

Other observations

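The reference table of names gives 3 further genes of the tested table names of these families, although the deposited tables carry no symbol for them, and they are not among the 73. ENSDARG00000088087, named KDM6B there, had 738 ± 138 scaled counts in the MeHg lineage and 496 ± 119 in the control lineage (SD, n = 6 and 5). Of its 6 MeHg libraries 5 held at least 643, against a control maximum of 619.6 and a lowest MeHg library of 575. Its log2 fold change was 0.59 ± 0.19 (SE) at a limma adjusted p of 0.453. ENSDARG00000040633, named PRMT8, had 193 ± 29.2 scaled counts in the MeHg lineage and 151 ± 30.4 in the control lineage, with a log2 fold change of 0.35 ± 0.16 (SE) at a limma adjusted p of 0.747. ENSDARG00000074456, named SETD9, had a log2 fold change of -0.02. The first and the second stand beside the values of kdm6bb and prmt8b given above, and reads shared between such relatives may have been counted in either.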
